A study of Homo sapiens with 6 samples.

Results

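The genes described here are 8 androgen-regulated and prostate lineage genes: HOXB13, FOXA1, NR3C1, KLK2, KLK3, SLC45A3, TMPRSS2 and FKBP5. They were looked up by gene symbol in the annotation of the array, and a gene was taken as measured where a probe set carried its symbol and no other. That held for 6 of the 8 genes, each with 1 probe set, among 18417 genes with a probe set of their own. TMPRSS2 and FKBP5 were annotated only on probe sets shared with other genes, whose values are given below without being assigned to either gene. The cells were PC3, a human prostate cancer line that grows without androgen. They were transfected with miR-205 (3 arrays) or with a negative control mimic (3 arrays), which the series design calls biological replicates. All 6 arrays measured RNA that was recovered with a rat antibody against AGO2, the Argonaute protein that carries microRNAs, so immunoprecipitation is common to both groups. No input RNA was analysed here, and no dose or time after transfection is given in the labels.

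The androgen receptor is a steroid-activated transcription factor on which the luminal cells of the prostate depend. FOXA1 is a forkhead pioneer factor that opens chromatin for it, and HOXB13 is a homeobox factor of the caudal body axis that marks prostate epithelium and binds with both. KLK2, KLK3, TMPRSS2, SLC45A3 and FKBP5 are well known target genes of the receptor, and the glucocorticoid receptor, encoded by NR3C1, binds the same DNA element and can drive some of them. PC3 is widely used as a line with little or no androgen receptor activity.

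The introduced microRNA is printed to show the seed, the stretch that pairs with target transcripts. The sequence is that of the natural 5p strand in RefSeq (GRCh38.p14, chr1:209432166-209432187, plus strand), written 5′ to 3′ with the seed (bases 2 to 8) in capitals. The labels do not give the sequence of the mimic itself.
hsa-miR-205-5p: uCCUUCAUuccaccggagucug

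With miR-205, the AGO2-bound signal of HOXB13 was lower, that of FOXA1 and NR3C1 was slightly higher, and KLK2, KLK3 and SLC45A3 showed no difference beyond the spread of the arrays. HOXB13 was 0.60 times its control level. FOXA1 was 1.19 times and NR3C1 1.22 times its control level, and both of these small rises lost significance when single arrays were left out. Values are log2 RMA intensities, and changes are log2 differences, miR-205 minus negative control, from a limma fit over all 18417 genes with Benjamini-Hochberg adjustment and a threshold of 0.05. By this rule 1 of the 6 genes fell and 2 rose, where 14% of all genes fell, 12.6% rose and 26.6% passed in either direction. The groups did not overlap for the same 3 genes, 1 lower and 2 higher, against 42.2% of all genes (22.2% lower and 19.9% higher). With 6 genes, these counts do not set the list apart from the array as a whole. The median change of the 6 genes was -0.0031, beside -0.016 for all genes. AGO2-bound RNA reports transcript abundance and AGO2 loading together, and in a bulk sample fewer expressing cells and less RNA per cell cannot be told apart.

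**Figure D1:**
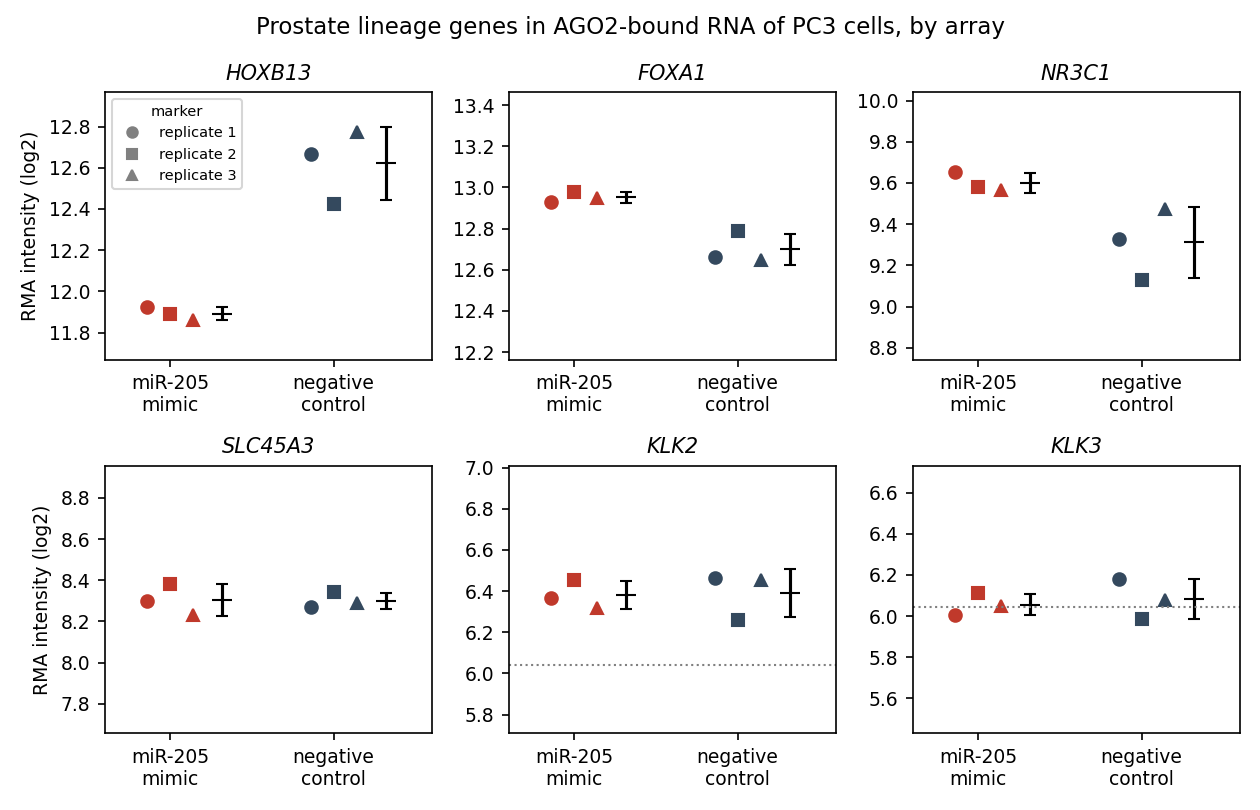
Log2 RMA intensity (vertical axis) of the 6 genes with a probe set of their own, in each of 3 miR-205 arrays (left, red) and 3 negative control arrays (right, dark blue). Marker shapes give the replicate number, black bars the mean ± SD, and each vertical axis spans the same width; the dotted line in the KLK2 and KLK3 panels is the 95th percentile of olfactory receptor genes (6.04). HOXB13 lies lower in all miR-205 arrays, while the groups of the 3 lower panels overlap.

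HOXB13 stood at 11.92, 11.89 and 11.86 in the miR-205 arrays and at 12.67, 12.43 and 12.77 in the negative control arrays. All miR-205 arrays lay below all control arrays, and the control arrays were spread more widely. The means were 11.89 ± 0.03 with miR-205 and 12.62 ± 0.18 with the negative control (SD, n = 3 each), a change of -0.73 ± 0.09 (SE; limma adjusted p = 0.00059; 95% interval -0.93 to -0.53). Of all genes, 2.51% had a larger change in size. Negative control replicate 2 was the control array nearest to the miR-205 level, and without it the change was -0.83. HOXB13 passed the threshold under all 14 alternatives run, with changes of -0.83 to -0.65.

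FOXA1 stood at 12.93, 12.98 and 12.95 in the miR-205 arrays and at 12.66, 12.79 and 12.65 in the negative control arrays. The groups did not overlap, but the gap between them was narrow. The means were 12.95 ± 0.03 and 12.70 ± 0.08 (SD, n = 3 each, miR-205 first), a change of 0.25 ± 0.06 (limma adjusted p = 0.0169; 95% interval 0.11 to 0.39), and 24.4% of all genes changed by more. The call was lost without miR-205 replicate 2 (limma adjusted p = 0.0689), miR-205 replicate 3 (0.0524), negative control replicate 1 (0.0524) or negative control replicate 3 (0.0564), with changes of 0.23 to 0.25 in these fits. It was kept without miR-205 replicate 1 (limma adjusted p = 0.0449) or negative control replicate 2 (0.00756), with changes of 0.27 and 0.30. HOXB13 and FOXA1, whose proteins act together at prostate enhancers, thus moved in opposite directions.

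NR3C1, the glucocorticoid receptor gene, stood at 9.65, 9.58 and 9.57 in the miR-205 arrays and at 9.33, 9.13 and 9.48 in the negative control arrays. The highest control array came close to the lowest miR-205 array. The means were 9.60 ± 0.05 with miR-205 and 9.31 ± 0.17 with the negative control (SD, n = 3 each), a change of 0.29 ± 0.09 (limma adjusted p = 0.0417; 95% interval 0.09 to 0.49). Leaving out any array but negative control replicate 3 ended the call (limma adjusted p = 0.071 to 0.126), and so did adjustment over all probe sets of the array (0.0943). Negative control replicate 2 held the lowest value, and without it the change was 0.20 (limma adjusted p = 0.0711). For HOXB13 and FOXA1 that array was the control nearest to miR-205, while for NR3C1 it was the control farthest from it.

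KLK3 encodes prostate-specific antigen, a kallikrein protease of seminal fluid, and KLK2 encodes its close relative hK2. KLK3 stood at 6.01, 6.11 and 6.05 with miR-205 and at 6.18, 5.98 and 6.08 with the negative control. KLK2 stood at 6.37, 6.46 and 6.32 with miR-205 and at 6.46, 6.26 and 6.45 with the negative control. Both genes were near background, and their groups overlapped. The 360 olfactory receptor genes, most of which have no known role in epithelial lines, served as a scale for background, with a 95th percentile of 6.04 and a 99th of 6.86. KLK3 lay above the first level in 4 of 6 arrays and KLK2 in 6 of 6, and both lay below the second in every array. In the mean of the 6 arrays, 18 olfactory receptor genes were brighter than KLK3 and 10 were brighter than KLK2. The changes were -0.03 ± 0.07 for KLK3 (95% interval -0.18 to 0.13) and -0.01 ± 0.08 for KLK2 (95% interval -0.18 to 0.16), with limma adjusted p-values of 0.833 and 0.939. At such levels the probe sets may read little but background, so these intervals limit the change in signal and not the change in transcript.

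KLK3 and KLK2 lie side by side in the kallikrein cluster, between KLK15 and KLK4. The 250 bases upstream of each are printed because these genes are the classical readout of androgen receptor activity and were the members nearest to background here. They come from RefSeq (GRCh38.p14, plus strand, chr19:50854665-50854914 for KLK3 and chr19:50873189-50873438 for KLK2) and run 5′ to 3′. Capitals mark exact matches to the hexamer AGAACA or to its reverse complement TGTTCT. This hexamer is a half-site, that is, a part of the element bound by the androgen and glucocorticoid receptors.
KLK3: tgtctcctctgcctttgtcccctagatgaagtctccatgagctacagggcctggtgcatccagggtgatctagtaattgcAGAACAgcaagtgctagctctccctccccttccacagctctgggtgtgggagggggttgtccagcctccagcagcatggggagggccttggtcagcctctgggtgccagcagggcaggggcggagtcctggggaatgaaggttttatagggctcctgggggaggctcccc
KLK2: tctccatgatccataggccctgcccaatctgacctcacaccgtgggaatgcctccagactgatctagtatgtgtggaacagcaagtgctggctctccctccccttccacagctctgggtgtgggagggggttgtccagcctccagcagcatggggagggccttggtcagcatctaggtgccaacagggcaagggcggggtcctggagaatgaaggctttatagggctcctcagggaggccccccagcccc

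The KLK3 window held the hexamer once, starting 170 bases before the gene's start, and the KLK2 window did not hold these exact letters. Where KLK3 reads AGAACAgcaagtgct, KLK2 reads ggaacagcaagtgct, a near match that the search does not count. The lack of an exact match therefore does not show that KLK2 lacks a receptor site. Over 238 aligned positions the windows were 86.1% identical, with a longest shared run of 80 bases. Of 35116 RefSeq windows of the same length, 12.4% held the hexamer on either strand. The forkhead motif TGTTTAC was found in 2.98% of windows and the HOX13-type motif CCAATAAA in 0.863%, each on either strand. Among windows of KLK2, KLK3, FOXA1 and SLC45A3, neither was found, and among 7 windows of NR3C1, 1 held the forkhead motif and 0 the hexamer. FOXA1 and SLC45A3 had 1 window each, without the hexamer. HOXB13 had no window in this set, so its upstream sequence was not examined. None of the 3 motifs contains another, and a match says only that the letters are present.

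SLC45A3, which encodes prostein, a membrane transporter of luminal prostate cells, was well above the olfactory receptor level. It stood at 8.30, 8.38 and 8.23 with miR-205 and at 8.27, 8.34 and 8.29 with the negative control. The groups covered the same range. The change was 0.0044 ± 0.06 (limma adjusted p = 0.969), with a 95% interval of -0.14 to 0.15. Its relatives SLC45A1 (-0.09), SLC45A2 (-0.21) and SLC45A4 (0.02) did not pass either. Only 2 of these 3 had a mean above the olfactory receptor level, and for a dim gene a flat signal does not limit the change in transcript. At an unadjusted p under 0.05 0 of these 3 relatives passed in the limma fit, and 1 was lower in the adjusted fit without negative control replicate 2.

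TMPRSS2 encodes a membrane-bound serine protease, and FKBP5 encodes an HSP90 co-chaperone of steroid receptors. The probe set annotated with TMPRSS2, LOC285847 and FKBP5 together stood at 8.04, 8.10 and 8.06 with miR-205 and at 7.92, 8.06 and 8.25 with the negative control. Its groups overlapped, with a change of -0.02 ± 0.09 (limma adjusted p = 0.938 over all 33297 probe sets). The probe set annotated with FKBP5 and LOC285847 stood at 7.88, 7.96 and 7.90 with miR-205 and at 8.11, 8.25 and 8.12 with the negative control. It was lower in all miR-205 arrays, by -0.25 ± 0.06 (limma adjusted p = 0.0482 over all probe sets), but leaving out any 1 array ended the call (0.0812 to 0.144). Which of the annotated transcripts these signals came from was not tested.

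**Figure D2:**
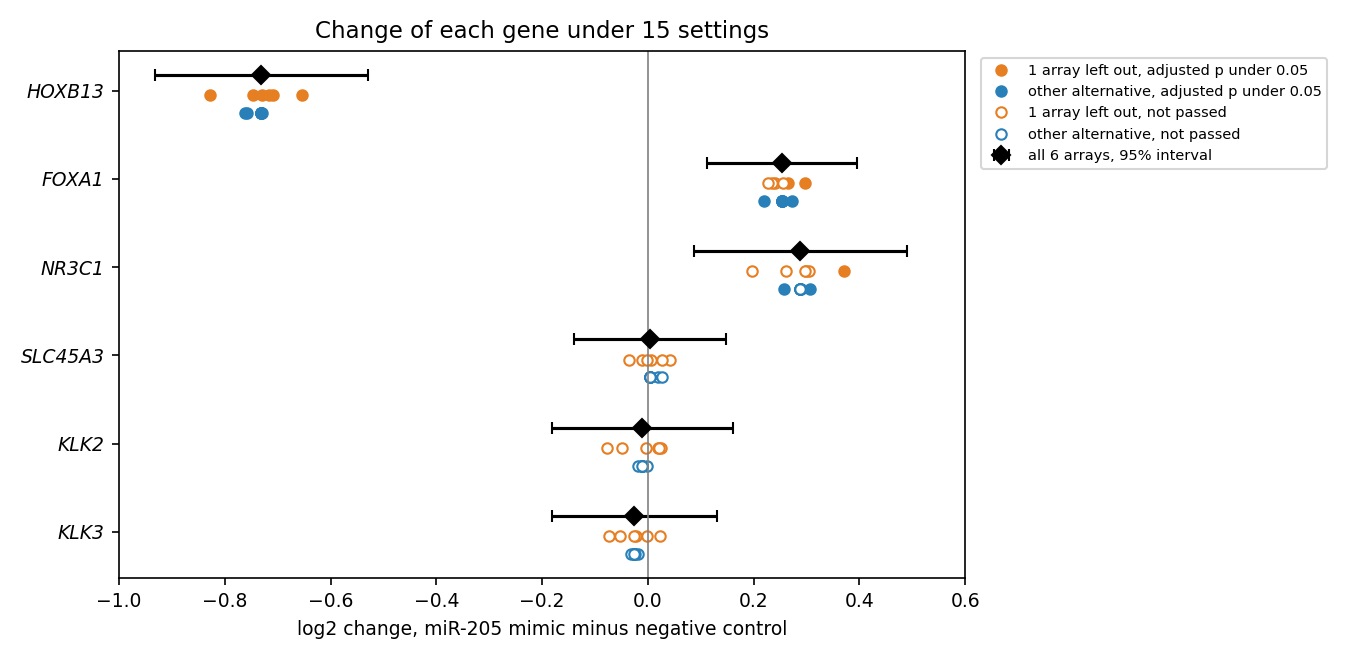
Log2 change, miR-205 mimic minus negative control (horizontal axis), of the 6 genes. Black diamonds with bars are the fit to all 6 arrays with its 95% interval; orange points leave out 1 array each and blue points are the other alternatives, filled where the limma adjusted p was under 0.05. HOXB13 is filled throughout (-0.83 to -0.65), FOXA1 and NR3C1 are partly open, and SLC45A3, KLK2 and KLK3 straddle 0.

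Genes of the surrounding pathways were read in the same fit, from lists chosen with earlier results of these arrays known. They are given as counts, medians and examples, with no test of a list. Of 51 measured androgen response genes other than the 8 above, 16 fell, 10 rose and 25 did not pass, with a median change of -0.06. As shares, 31.4% of them fell and 19.6% rose, against 14% and 12.6% of all genes. With single arrays left out, 12 to 17 of them fell and 7 to 12 rose. With dim genes left out, 2483 genes rose and 2787 fell over the array, in place of 2320 and 2586. Shares among the brighter genes were thus higher than 12.6% and 14%. This bears on the forkhead list (19 of 20 above the olfactory receptor level) and the FKBP and HSP90 list (23 of 24) below. It also bears on the list of prostate transcription factor genes (16 of 19). Of the 51 androgen response genes, 41 lay above that level. The ubiquitin ligase gene HERC3 had the smallest p, at 6.21, 6.07 and 6.19 with miR-205 and 7.24, 7.26 and 7.24 with the negative control (-1.09, limma adjusted p = 2.28e-05). UAP1, an enzyme that makes UDP-N-acetylglucosamine, fell by 1.099 and LRIG1, a negative regulator of receptor tyrosine kinases, by 0.66. The galactosyltransferase gene B4GALT1 rose by 1.03. Genes of this list thus moved both ways. KLK4, the kallikrein gene next to KLK2, had a change of -0.10 (limma adjusted p = 0.316).

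Among 14 other kallikrein genes, KLKB1 included, 0 passed in the limma fit, where 26.6% of all genes passed. Of the 14 kallikrein genes, 2 had an unadjusted p under 0.05, and changes were -0.16 to 0.17 with a median of -0.04. Without negative control replicate 2, 1 was higher and 1 lower. With array weights, or with dim genes left out, 1 was higher. KLK10 and KLK5, kallikreins of squamous epithelia, were well above background, at 9.27 ± 0.07 and 9.23 ± 0.18 with miR-205 and 9.17 ± 0.07 and 9.08 ± 0.14 with the negative control (SD, n = 3 each; chosen after their values were seen). Neither passed (limma adjusted p = 0.353 and 0.336). Of the 14 genes, 11 had a mean above the olfactory receptor level, and KLK12, KLK15 and KLKB1 lay below it. KLK1, KLK7, KLK9, KLK11 and KLK13 had both means below the 99th percentile (6.86). For such dim genes, a flat signal does not limit the change in transcript. Of 17 genes of type II transmembrane serine proteases, the family of TMPRSS2, 1 rose (5.88%, against 12.6% of all genes) and 0 fell (against 14%). The 1 that rose was ST14, which encodes matriptase, by 0.31 (limma adjusted p = 0.0316). It stood at 6.28, 6.44 and 6.47 with miR-205 and 6.12, 6.21 and 5.93 with the negative control. Like KLK2 it was near background, with both means below the 99th percentile of olfactory receptor genes (6.86). Its call was lost over all probe sets (limma adjusted p = 0.0772) and without miR-205 replicate 2 or 3 or negative control replicate 1 or 3 (0.0648 to 0.107). TMPRSS4 had a change of -0.09 (limma adjusted p = 0.291), but at 5.42 and 5.51 (miR-205 first) it lay below the olfactory receptor level in both groups. Of the 17 genes, only 6 had a mean above that level.

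None of the 9 measured genes HOXB1 to HOXB9 and neither of the HOX13 paralogs HOXC13 and HOXD13 passed in the limma fit, with changes of -0.15 to 0.16, where HOXB13 changed by -0.73. At an unadjusted p under 0.05 0 of these 11 genes passed. HOXB7 had a change of -0.01 and HOXB9 of 0.05. Several of these genes were near background. HOXB7 (5.47 and 5.48, miR-205 first) lay below the olfactory receptor level in both groups. HOXB1, HOXB2, HOXB3, HOXB5 and HOXB8 had both means below the 99th percentile of olfactory receptor genes (6.86). For such dim genes, a small change limits the signal and not the transcript. HOXC13 was the brightest of them, at 9.25 and 9.16. Of the HOX cofactor genes in the same list, MEIS2 rose by 0.45 (limma adjusted p = 0.00345) and MEIS1 by 0.34 (0.0219). The whole list of 15 thus had 2 rises and 0 falls, with a median of 0.05. The share that rose (13.3%) was near that of all genes (12.6%), and 0% fell, against 14%. Without negative control replicate 2 the list had 4 rises and 1 fall, and 1 rise without miR-205 replicate 1 or over all probe sets.

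Of 20 forkhead genes other than FOXA1, 8 fell (5 when any 1 of the miR-205 arrays was left out) and 0 rose, with a median of -0.13. The falls make up 40% of the list, against 14% of all genes, and include FOXP2 (3.76 and 3.98, miR-205 first), which lay below the olfactory receptor level in both groups. With repeated quantile normalization, or with dim genes left out, 1 rose. FOXA2, the closest measured relative that passed, stood at 10.09, 10.21 and 10.38 with miR-205 and 10.89, 10.62 and 10.96 with the negative control. Its change of -0.60 ± 0.11 (limma adjusted p = 0.00377) ran opposite to that of FOXA1. FOXL1 (-0.53), FOXM1 (-0.33), a driver of mitotic genes, and FOXD1 (-0.40) also fell, and FOXA3 had a change of 0.03 (limma adjusted p = 0.822). Of 19 other prostate transcription factor genes, 6 fell (31.6%) and 4 rose (21.1%), beside the 14% and 12.6% of all genes. Their median change was -0.01, and 16 of the 19 lay above the olfactory receptor level. The ETS factor genes ELF3 (1.51) and EHF (0.71) rose, and GATA3 (-0.40) and NFIB (-0.39) fell. ELF3 stood at 9.51, 9.34 and 9.55 with miR-205 and at 7.66, 8.38 and 7.83 with the negative control, with negative control replicate 2 again nearest to miR-205.

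Around NR3C1, 24 glucocorticoid response genes were measured, of which 3 rose, 4 fell and 17 did not pass. Their median change was 0.06. The shares that rose (12.5%) and fell (16.7%) were near those of all genes, 12.6% and 14%. ANGPTL4 (-0.50), an inhibitor of lipoprotein lipase, and the thiamine transporter gene SLC19A2 (-0.49) fell, as did TSC22D3 (-0.33, limma adjusted p = 0.007), which encodes the glucocorticoid-induced leucine zipper. TIPARP (0.75), a mono-ADP-ribosyltransferase gene, and RGS2 (0.66), a regulator of G protein signalling, rose. SGK1, a kinase gene that glucocorticoids induce, stood at 8.01, 8.24 and 8.39 with miR-205 and at 6.74, 8.43 and 6.94 with the negative control (limma adjusted p = 0.133). Negative control replicate 2 alone kept its groups from separating, and without that array 10 of the 24 genes rose in place of 3. Of 29 other nuclear receptor genes, 8 fell (27.6%, against 14% of all genes) and 3 rose (10.3%, against 12.6%). Their median change was -0.08. In fits to any 5 of the arrays 3 to 8 fell and 1 to 3 rose, and over all probe sets 3 fell and 1 rose. The vitamin D receptor gene VDR rose by 0.62, NR1D2 (-0.35), PPARG (-0.28) and THRA (-0.34; limma adjusted p = 0.0551 without miR-205 replicate 1) fell, and NR3C2, the mineralocorticoid receptor gene closest to NR3C1, had a change of -0.18 (limma adjusted p = 0.185).

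Of 24 genes of FKBP immunophilins and HSP90 receptor chaperones, the machinery to which FKBP5 belongs, 11 rose (45.8%, against 12.6% of all genes) and 1 fell (4.17%, against 14%), with a median of 0.11. The number that rose was 5 to 10 in fits to any 5 of the arrays. FKBP4, which promotes receptor transport where FKBP5 restrains it, stood at 10.36, 10.47 and 10.35 with miR-205 and 9.55, 9.62 and 9.76 with the negative control, a change of 0.75 ± 0.07 (limma adjusted p = 0.000207). FKBP10, a collagen chaperone of the endoplasmic reticulum, rose by 0.73 and PPID, an HSP90-bound cyclophilin, by 0.30, while FKBP9 fell by 0.54. Of 22 steroid metabolism genes, 4 fell (18.2%, against 14% of all genes) and 1 rose (4.55%, against 12.6%), and 2 rose without negative control replicate 2 or 3. Their median change was 0.00495, and 7 of the 22 lay above the olfactory receptor level. The steroid sulfatase gene STS (-0.76), AKR1C1 (-0.84) and the steroid 5-alpha-reductase gene SRD5A1 (-0.29) fell, and HSD17B4 (0.42) rose. AKR1C1 shares much sequence with its AKR1C relatives, so its probe set may read several of them, and in the mean of its probe sets its change was -0.47. Its mean with miR-205 (5.92) was below the olfactory receptor level.

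**Figure D3:**
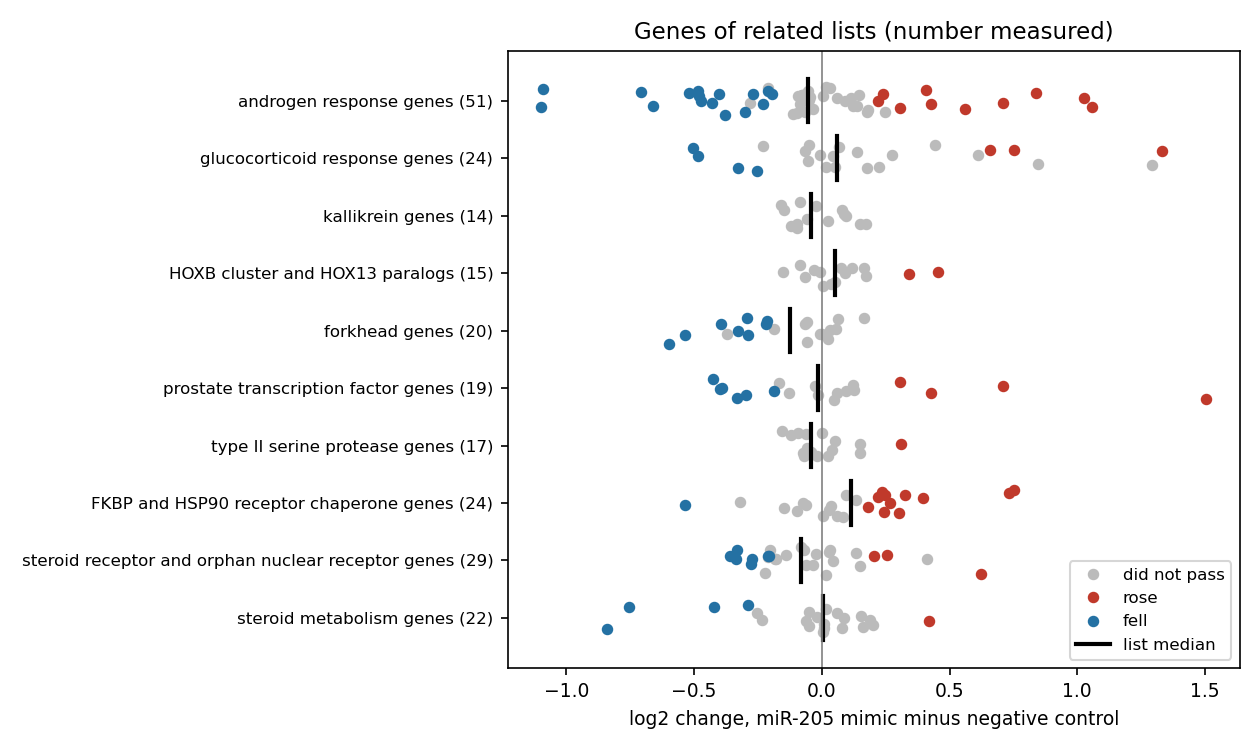
Log2 change, miR-205 mimic minus negative control (horizontal axis), of each measured gene in 10 related lists (rows, with the number measured). Red points rose and blue points fell at a limma adjusted p under 0.05, grey points did not pass, and black bars are list medians. Most lists hold points on both sides of 0, and the kallikrein row (14 genes) is grey throughout.

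The genes whose pattern over the 6 arrays was most like that of a member were taken among genes above the olfactory receptor level that varied at least as much. For HOXB13 these were SEMA6D, a semaphorin gene, IL6R, the interleukin-6 receptor gene, and SLC5A3, a myo-inositol transporter gene, with Pearson's r of 0.998 to 0.9997 over 6 arrays among 477 candidates. SEMA6D stood at 7.99, 7.95 and 7.93 with miR-205 and at 9.32, 8.92 and 9.55 with the negative control. Like HOXB13 it was lower in all miR-205 arrays, with negative control replicate 2 the lowest control. For FOXA1 they were TIMM10B, TUFT1 and DECR1 (r of 0.997 to 0.998 among 5301 candidates), and for NR3C1 ACBD3, LNX2 and RIPOR2 (0.977 to 0.986 among 3207). With 6 arrays in 2 groups, the group difference makes up most of such a correlation.

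Markers of prostate cell types were read to check the label of the cells. The luminal keratin genes KRT8 and KRT18 were bright and rose, to 12.07 ± 0.09 and 11.93 ± 0.04 with miR-205, against 11.18 ± 0.05 and 11.38 ± 0.02 with the negative control (SD, n = 3 each). The secretory markers ACP3 (5.70 and 5.39) and MSMB (3.90 and 3.82, miR-205 first) lay below the olfactory receptor level in both groups, as did the basal keratin gene KRT5 (5.71 and 5.65), the neuroendocrine marker CHGA (5.66 and 5.70) and the leukocyte marker PTPRC (3.61 in both). Of the luminal markers, 4 of 6 lay above that level, KRT8, KRT18, SPDEF (11.53 and 11.41) and the secreted kallikrein gene KLK4 (7.09 and 7.19). The mean of the 6 measured luminal markers was 8.67 to 8.74 with miR-205 and 8.37 to 8.41 with the negative control. Of these 6 markers KRT8, KRT18 and the dim ACP3 rose and 0 fell (50% and 0%, against 12.6% and 14% of all genes). The mean of the 6 basal markers was 9.44 with miR-205 in all arrays and 9.25 to 9.29 with the negative control, and 5 of them lay above the olfactory receptor level. ITGB4 (0.77) and KRT15 (0.32) rose and CD44 (-0.28) fell, which makes 33.3% and 16.7% of the 6, against 12.6% and 14% of all genes. With any 1 array but negative control replicate 2 left out, 1 basal marker rose. Among 8 neuroendocrine, 10 fibroblast and smooth muscle and 8 leukocyte markers, 1, 1 and 0 rose and 1, 1 and 0 fell in the limma fit. These shares were 12.5%, 10% and 0% each way, beside 12.6% rising and 14% falling of all genes. Both fibroblast and smooth muscle calls were lost with repeated quantile normalization, median centring or all probe sets. With single arrays left out, the neuroendocrine fall held only without negative control replicate 1 or 2. Of the leukocyte markers 1 had an unadjusted p under 0.05. In the order of these 3 lists, 3, 8 and 3 markers had a mean above the olfactory receptor level, among them COL1A1 with 9.05 in miR-205 arrays and 8.94 in negative control arrays. The part of these markers in the changes of HOXB13, FOXA1 and NR3C1 was not tested.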

How the data were processed

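The authors deposited log2 intensities. Their software was Affymetrix Expression Console 1.1.2 with RMA, as the submitters' processing notes state, and the genome build is not given in the sources used here. No further normalization was applied. Of 33297 probe sets, 19460 carried 1 gene symbol and 1754 several. The brightest probe set per gene over the 6 arrays was kept, which gave 18417 genes. The reference gene table held 19429 of the Entrez numbers and changed 0 symbols. The main test was limma 3.58.1 (R 4.3.3; lmFit and eBayes, two-sided, no covariate), adjusted over all genes. The 8 members, the lists, the brightness scale and the alternatives were chosen with earlier results of these data known. Named are all members, up to 4 passing genes of each list by smallest p, 10 relatives of members whatever their values, and single examples marked as such. Alternatives changed the scaling, the treatment of dim genes, the probe set summary, the variance model or the array weights, added the replicate number as a block, or left out each array. The number of arrays limits precision. The fit was tested on simulated data with 200 changed genes, in 10 runs. It recovered 29.2% of 1.25-fold, 77% of 1.5-fold and 94.4% of 2-fold changes, and 3.62% of its calls were false. Small changes may thus have been missed among genes that did not pass. In the data 4906 genes were called, so these percentages need not carry over. Deviations of same-numbered arrays of the groups correlated at 0.01 to 0.09, under the limit of 0.1, so the numbers were not taken as pairs. Sequences are RefSeq's (GRCh38.p14), and promoter windows were aligned with Biopython 1.88.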

Additional observations from a re-analysis of the deposited data

How the results depend on the processing

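The call of HOXB13 held under all 14 alternatives (-0.83 to -0.65, limma adjusted p = 3.92e-05 to 0.00485). With 1 array left out, FOXA1 ranged from 0.23 to 0.30 and NR3C1 from 0.20 to 0.37, and 0 to 1 of the 6 genes rose in place of 2, while 1 fell in each fit. Over all probe sets NR3C1 (0.29) no longer passed and 1 gene rose. The values near 0 changed sign with 1 array left out, KLK2 from -0.0769 to 0.0246, KLK3 from -0.0735 to 0.0234 and SLC45A3 from -0.0349 to 0.0412, and passed in none of the 14. Over the array, 1588 to 2668 genes rose and 1777 to 2881 fell with 1 array left out. The highest of both counts came without negative control replicate 2. With any other array left out, 1588 to 1711 rose and 1777 to 2098 fell. Between 2 arrays of a group, the SD of the gene differences was 0.218 and 0.215 for pairs with negative control replicate 2. It was 0.131 to 0.155 for the other pairs. With the replicate number as a block, 2204 rose and 2423 fell, HOXB13 kept -0.73 (0.00181), and the calls of FOXA1 and NR3C1 held; 5 of 6 arrays correlated best with their own number. The block changed no call of the 6 genes, though 5 glucocorticoid response genes rose under it in place of 3. By the 99th percentile of olfactory receptor genes 2 members were dim in both groups, KLK2 and KLK3, and by the 90th or 95th 0. The cause of these shifts was not tested.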
